A study of Mus musculus with 6 samples.

Results

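Variable (V) gene segments of the immunoglobulin loci were examined in RNA-seq of mouse intestinal crypt stem cells. They were chosen by name and by level: all genes of the deposited table whose symbol begins with Ighv, Igkv or Iglv and whose counts, summed over the 6 samples, reached 30. The rule selected 143 of the 192 V segments listed, out of 28752 genes in all, and comprised 72 heavy chain, 68 kappa chain and 3 lambda chain segments. Of these, 142 are annotated as functional V genes and 1, Igkv2-116, as a V pseudogene. The remaining 49 segments held 601 counts together, 1.8% of all V segment counts.

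The study comprised 3 samples labelled vector and 3 labelled circEZH2_005, named here vector 1 to 3 and circEZH2_005 1 to 3. Cells of both groups carried the label wild type, came from Lgr5-GFP mice, whose stem cells are marked by a fluorescent reporter, and were sorted for that reporter and grown into organoids in IntestiCult medium. The treatment text given with all 6 samples describes infection with an adenovirus for the circular RNA, 72 h before hypoxia/reoxygenation (H/R), and what the vector samples received is given only by the word vector. H/R is the treatment given for each of the 6 samples. In this model organoids spent 4 h at 2% O2, 5% CO2 and 93% N2. The sources used here do not give the age of the Lgr5-GFP mice themselves, how many mice were pooled, or whether the 3 samples of a group came from separate cultures or animals, so p-values measure only the spread between these samples. A virus acts on the cells it enters, and the fraction of cells infected is not given. The circular RNA has no row of its own in the table and its level was not checked here.

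An antibody is built from paired heavy and light chains, and each chain gene is assembled in a developing B cell by V(D)J recombination, which joins one V segment to a joining (J) segment, with a diversity (D) segment between them in the heavy chain. A mature transcript therefore carries one V segment ahead of a constant region, such as Igha for IgA, Ighm for IgM or Igkc for the kappa light chain. The gut wall normally holds many plasma cells, the antibody-secreting descendants of B cells, and most of them make IgA, whereas the epithelium carries it into the lumen. The range of V segments seen in a sample depends on which B cell clones contributed RNA.

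The labelled cell type was checked first. The 4 stem cell markers Lgr5, Olfm4, Ascl2 and Smoc2 summed to between 1071 and 2422 counts per 1000000 (CPM) in each sample, and the 5 epithelial markers Epcam, Vil1, Cdh1, Krt8 and Krt18 to between 6029 and 9615 CPM. Within the first list Lgr5 (log2 fold change -0.88, adjusted p = 0.0434 by edgeR) and Smoc2 (-0.81, adjusted p = 0.0203) fell in circEZH2_005 samples, Ascl2 was lower without overlap (-0.68, adjusted p = 0.0921) and Olfm4, which held most of the sum, overlapped. Transcripts of other cells were present as well: 15 B cell markers such as Cd79b and Ms4a1 summed to 6.132, 13.75 and 7.206 CPM in vector 1 to 3 and to 43.26, 20.37 and 11.89 CPM in circEZH2_005 1 to 3. The 13 T cell markers summed to 137.5, 551.4 and 165.4 CPM in vector samples and to 1573, 1190 and 852.1 CPM in circEZH2_005 samples. Library totals lay between 71506487 and 79919893 counts. V segments took from 0.00228% to 0.0222% of a library, so every value below rests on few reads.

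The V segments that the results turn on are shown here around the conserved cysteine near the end of their coding sequence, a stretch that enters the antigen-binding loop. The codon of that cysteine is in capitals, as located by a search for the last in-frame TGT or TGC codon with a tyrosine codon TAT or TAC among the 2 codons before it. All sequences are germline sequences read 5′ to 3′ from GENCODE M21 transcripts (GRCm38), so they show the inherited segment and not a rearranged or mutated antibody. Each stretch stops at a fixed distance past the codon or at the coding end, whichever comes first, so the last coding bases of most light chain segments are not shown. The first set holds the 10 segments with the most counts, because they carried much of the signal in every sample.

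Igkv1-110 (chr6:68271206-68271265, plus strand): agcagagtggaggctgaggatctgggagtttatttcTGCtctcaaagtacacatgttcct
Igkv10-96 (chr6:68631965-68632024, minus strand): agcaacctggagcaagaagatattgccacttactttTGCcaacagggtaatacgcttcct
Igkv1-117 (chr6:68121766-68121825, plus strand): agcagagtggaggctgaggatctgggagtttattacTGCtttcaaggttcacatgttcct
Ighv6-3 (chr12:114391712-114391755, minus strand): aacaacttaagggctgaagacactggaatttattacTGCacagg
Ighv1-18 (chr12:114682632-114682676, minus strand): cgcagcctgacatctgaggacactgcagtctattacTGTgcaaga
Ighv1-26 (chr12:114788372-114788416, minus strand): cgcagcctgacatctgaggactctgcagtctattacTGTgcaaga
Ighv3-6 (chr12:114288152-114288198, minus strand): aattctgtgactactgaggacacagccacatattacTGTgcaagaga
Igkv8-30 (chr6:70117063-70117122, minus strand): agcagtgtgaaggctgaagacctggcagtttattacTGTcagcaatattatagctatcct
Ighv1-55 (chr12:115208095-115208139, minus strand): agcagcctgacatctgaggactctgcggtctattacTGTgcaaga
Igkv5-43 (chr6:69823357-69823416, minus strand): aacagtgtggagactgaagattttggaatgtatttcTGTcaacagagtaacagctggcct

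The second set holds the 4 segments that passed the test between groups, described further on. The annotated coding sequence of Ighv3-8 runs on for 55 bases after the cysteine codon, against 6 in Ighv1-80, and its printed stretch is cut short of that end. Whether all of these bases remain after V(D)J recombination was not checked, so its last printed bases need not enter the loop.

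Igkv4-80 (chr6:69016558-69016617, minus strand): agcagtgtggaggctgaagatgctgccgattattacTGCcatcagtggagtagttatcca
Igkv4-91 (chr6:68768559-68768618, minus strand): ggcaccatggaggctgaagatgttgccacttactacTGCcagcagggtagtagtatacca
Ighv1-80 (chr12:115912344-115912388, minus strand): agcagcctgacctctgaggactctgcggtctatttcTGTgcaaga
Ighv3-8 (chr12:114322361-114322420, minus strand): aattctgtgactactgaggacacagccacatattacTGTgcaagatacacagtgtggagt

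The third set holds the lambda segments Iglv1 and Iglv2 and the kappa segment Igkv1-132, whose counts across samples did not follow those of the others.

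Iglv1 (chr16:19085020-19085079, minus strand): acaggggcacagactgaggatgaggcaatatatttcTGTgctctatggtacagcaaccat
Iglv2 (chr16:19260404-19260463, minus strand): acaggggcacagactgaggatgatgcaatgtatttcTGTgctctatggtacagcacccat
Igkv1-132 (chr6:67760352-67760411, plus strand): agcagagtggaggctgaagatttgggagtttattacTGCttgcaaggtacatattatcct

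Many V segments are near copies of each other, which limits how a short read can be assigned. The coding sequence of a V segment was on median 95.4% identical to that of its closest relative, and 75 of the 143 reached 95%. When every stretch of 50 bases was compared with all other annotated genes, a median of 24.4% of the stretches of a segment also occurred elsewhere. For 23 segments at least 50% of the stretches did so, and 20 segments shared none. Igkv1-110 and Igkv1-117 differ at 10 positions of their 359 coding bases, counted from 1 at the A of the start codon, of which T332A, C338T, A343G and A346T fall in the stretch printed above (the base of Igkv1-110 is given first). Ighv1-18 and Ighv1-26 differ at 11 positions, of which A328T lies in the printed stretch. How reads that match several segments were counted is not given in the sources used here, so the split between such pairs is uncertain.

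V segment transcripts were found in every sample, and most of them in a single sample. The 143 segments held 1642, 3829 and 1749 counts in vector 1 to 3 and 16955, 5322 and 3266 in circEZH2_005 1 to 3, so that circEZH2_005 1 alone held 51.8% of all member counts. Scaled to library size by the trimmed mean of M values (TMM), these were 22.68, 51.25 and 22.35 CPM in vector samples against 213.2, 71.52 and 45.58 CPM in circEZH2_005 samples. The groups overlapped, since circEZH2_005 3 lay below vector 2. The mean was 32.09 ± 16.6 CPM in vector samples and 110.1 ± 90.2 CPM in circEZH2_005 samples (SD, n = 3 each), a ratio of 3.43. The ratio was 1.82 without circEZH2_005 1, 4.89 without vector 2 and 2.60 without both. In bulk RNA, fewer B lineage cells and less antibody RNA per cell cannot be told apart. The leukocyte marker sums given above moved with V segment levels. The B cell sum, like that of the V segments, was lower in circEZH2_005 3 than in vector 2, whereas the T cell sum was higher there. Single genes weighed heavily in both sums. Gzma and Gzmb gave 671.6 and 543.8 CPM of the T cell sum in circEZH2_005 1. Cd37 gave 6.35 CPM of the B cell sum in circEZH2_005 3 and, unlike that sum, was lower in vector 2 (5.26 CPM). The part of these leukocyte markers in the result was not tested.

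The heavy and kappa loci followed that pattern and the lambda locus did not. The 72 Ighv segments, which span 2412 kb of chromosome 12 (113588267 to 116000461) and all lie on the minus strand, summed to 9.71, 22.43 and 8.432 CPM in vector samples against 98.81, 32.13 and 21.81 CPM in circEZH2_005 samples. The 68 Igkv segments, which span 3149 kb of chromosome 6 (67555497 to 70704177), summed to 11.91, 25.27 and 12.74 CPM and to 111.0, 37.7 and 22.64 CPM. In both loci circEZH2_005 3 lay just below vector 2, and circEZH2_005 1 lay above all other samples. The 3 Iglv segments on chromosome 16 (19085017 to 19260859) summed to 1.063, 3.547 and 1.175 CPM in vector samples against 3.459, 1.693 and 1.13 CPM in circEZH2_005 samples. The ratio of group means was 3.76 for Ighv, 3.43 for Igkv and 1.09 for Iglv. Without circEZH2_005 1 the ratios were 1.99, 1.81 and 0.732, and without vector 2 they were 5.61, 4.63 and 1.87.

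**Figure D1:**
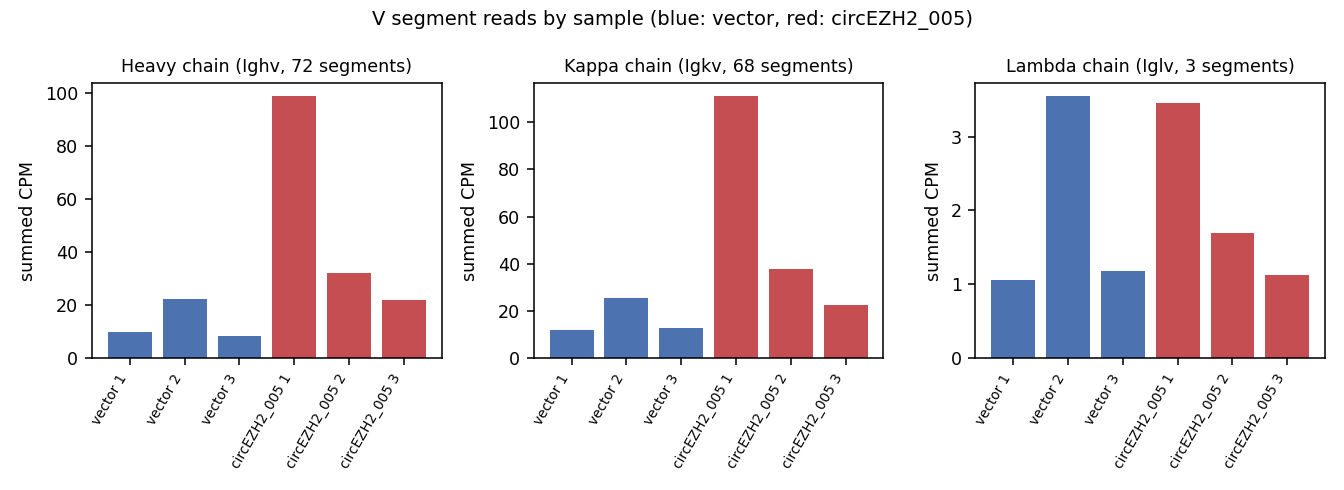
Bars give the summed CPM of the heavy, kappa and lambda V segments in each of the 6 samples, with vector samples in blue and circEZH2_005 samples in red, and each panel has its own vertical scale. circEZH2_005 1 stands highest for Ighv (98.81 CPM) and Igkv (111.0 CPM), whereas vector 2 stands highest for Iglv (3.547 CPM).

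The balance between kappa and lambda V counts differed between the groups without overlap, whereas that between the constant regions overlapped. Each lambda V count was matched by 11.2, 7.12 and 10.8 kappa V counts in vector 1 to 3 and by 32.1, 22.3 and 20.0 in circEZH2_005 1 to 3. Lambda segments made up 4.69% of member counts in vector 1 (95% Wilson interval 3.77 to 5.82), 6.92% in vector 2 (6.16 to 7.77) and 5.26% in vector 3 (4.31 to 6.41). They made up 1.62% in circEZH2_005 1 (1.44 to 1.82), 2.37% in circEZH2_005 2 (1.99 to 2.81) and 2.48% in circEZH2_005 3 (2.00 to 3.07). All 3 circEZH2_005 samples thus lay below all 3 vector samples, by intervals that cover counting error only. Over all 192 listed segments the lambda share was 4.56%, 6.79% and 5.02% in vector samples against 1.60%, 2.33% and 2.44% in circEZH2_005 samples. Among constant region counts, each lambda count was matched by 10.8, 13.9 and 19.4 Igkc counts in vector 1 to 3 and by 22.7, 17.3 and 23.0 in circEZH2_005 1 to 3, with vector 3 above circEZH2_005 2. The comparison was made after the values were seen and carries no test.

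Each segment was then tested singly, in a quasi-likelihood fit by edgeR over 18348 genes. Of the 143 segments, 101 passed its filter on low counts and 42 did not, the largest of which had 372 counts in all. A segment could pass through its counts in circEZH2_005 samples alone, so the counts that follow describe the segments tested and not all members. At an adjusted p under 0.05, 4 of the 101 were higher in circEZH2_005 samples and 0 were lower, beside 2.69% and 0.986% of all genes tested. With the looser rule of a fold over 2 and an unadjusted p under 0.05, 37 were higher and 0 lower, beside 6.22% and 1.34% of all genes. In 26 of the 101 every circEZH2_005 sample lay above every vector sample, beside 16.4% of all genes.

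The direction was shared widely while single calls were few. Of the 101 segments tested, 97 had a log2 fold change above 0, and their median was 1.94 (log2 scale, circEZH2_005 over vector), beside a median of 0.00 over all genes. It was 2.06 for 49 Ighv segments and 1.80 for 50 Igkv segments, while the 2 Iglv segments tested lay on either side of 0. Among all 143 members, 135 had the higher mean CPM in circEZH2_005 samples, including 38 of the 42 not tested. The highest of the 6 values fell in circEZH2_005 1 for 110 members, in circEZH2_005 2 for 13 and in circEZH2_005 3 for 9, against 4, 6 and 1 in vector 1 to 3. The member list was itself selected on the sum of these counts, over which circEZH2_005 1 had the most weight. Without circEZH2_005 1 the median log2 fold change fell to 0.93, and 13 of 103 segments tested met the looser rule. The share of all genes under that rule was not taken in that fit, so the count has none beside it.

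**Figure D2:**
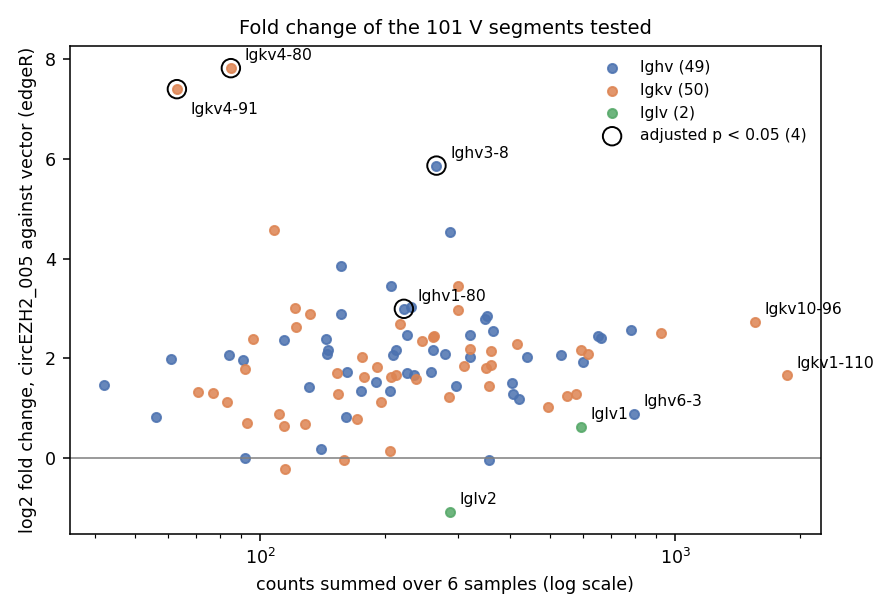
Each point is 1 of the 101 V segments tested, placed by its counts summed over 6 samples (horizontal, log scale) and its log2 fold change by edgeR (vertical, circEZH2_005 over vector), coloured by locus. The 97 points above 0 include the 4 circled segments with an adjusted p under 0.05, and Iglv2 lies lowest at -1.08. The heights of Igkv4-80 and Igkv4-91, at 0 in all vector samples, depend on the fit's prior count.

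The 4 calls among 101 segments lay near the 2.69% of all genes called higher. They are therefore described singly and not as a trait of V segments. Of these 4 segments, 3 were nearly absent from vector samples. Each of the 4 could pass the filter on low counts only through its circEZH2_005 counts, so low vector counts are no separate support. Igkv4-80, a kappa segment, had 0, 0 and 0 counts in vector samples against 40, 29 and 16 in circEZH2_005 samples. That is at least 28.3-fold higher when 3 counts over the whole vector group are taken as the floor (adjusted p = 0.0362 by edgeR). Igkv4-91, of the same kappa family, had 0, 0 and 0 counts against 26, 20 and 17, at least 21.0-fold higher on the same floor (adjusted p = 0.0379 by edgeR). Only 5.18% of the 50-base stretches of Igkv4-91 occurred in another gene, against 22.4% for Igkv4-80, which shared them with Igkv4-74.

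The other 2 were heavy chain segments. Ighv1-80 had 11, 6 and 7 counts in vector samples against 113, 39 and 46 in circEZH2_005 samples, a log2 fold change of 2.99 (SE 0.57, adjusted p = 0.0402 by edgeR). It was the one called segment with counts in every sample, and its lowest circEZH2_005 count was above 3 times its highest vector count. Ighv3-8 had 0, 4 and 0 counts against 181, 50 and 31 (adjusted p = 0.0434 by edgeR). Of the 50-base stretches of its annotated transcript, 0.29% occurred in another gene. In FPKM, which corrects for length, the 4 segments had means of 0.921 ± 0.409 (Igkv4-80), 0.675 ± 0.148 (Igkv4-91), 2.17 ± 1.38 (Ighv1-80) and 2.57 ± 2.43 (Ighv3-8) in circEZH2_005 samples (SD, n = 3). The number of calls changed with 1 sample left out, among members and among all genes. Without vector 1, vector 3 or circEZH2_005 2, 0 members were called, beside 0.136%, 0.162% and 0.325% of all genes called higher. Without circEZH2_005 1, 0 members were called, beside 2.91% of all genes. The count was 1 without circEZH2_005 3 and 5 without vector 2, beside 0.71% and 5.74% of all genes. In those 6 fits from 13 to 60 members met the looser rule, for which no share of all genes was taken there.

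The kappa segments with the most counts were abundant in all samples. Igkv1-110 had 113, 188 and 137 counts in vector samples against 887, 350 and 181 in circEZH2_005 samples, and was the most counted member in 4 of the 6 samples. Its FPKM was 4.48 ± 1.23 in vector samples and 13.7 ± 10.8 in circEZH2_005 samples (SD, n = 3), and its groups were barely separate in CPM, as circEZH2_005 3 had fewer raw counts than vector 2 (log2 fold change 1.66, adjusted p = 0.105 by edgeR). Igkv10-96 had 41, 77 and 80 counts against 1040, 211 and 110, and led in circEZH2_005 1 (log2 fold change 2.73, adjusted p = 0.0869 by edgeR). After scaling, both lay higher in every circEZH2_005 sample than in any vector sample, yet neither passed the adjustment. Igkv1-117, the near copy of Igkv1-110, had 18, 92 and 24 counts against 509, 223 and 57. Added together, the pair had 1.81, 3.75 and 2.06 CPM in vector samples against 17.6, 7.70 and 3.32 CPM in circEZH2_005 samples, and overlapped between groups. Igkv8-30 had 45, 32 and 38 counts against 305, 150 and 47 (adjusted p = 0.0877 by edgeR), and Igkv5-43 had 20, 43 and 42 against 325, 126 and 36 (adjusted p = 0.120 by edgeR).

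Heavy chain segments also varied between samples of 1 group. Ighv6-3, the heavy chain segment with the most counts, had 18, 234 and 22 counts in vector samples against 289, 189 and 42 in circEZH2_005 samples. It was high in vector 2, circEZH2_005 1 and circEZH2_005 2 and low in the other 3 samples, so the groups overlapped (log2 fold change 0.89, adjusted p = 0.658 by edgeR). Ighv1-18 had 46, 38 and 24 counts against 523, 66 and 86 (log2 fold change 2.58, adjusted p = 0.103 by edgeR), and its relative Ighv1-26 had 24, 56 and 21 against 404, 105 and 51 (log2 fold change 2.41, adjusted p = 0.112 by edgeR). The sum of this pair was 0.967, 1.26 and 0.575 CPM in vector samples against 11.7, 2.30 and 1.91 CPM in circEZH2_005 samples, which did not overlap. Ighv3-6 had 9, 44 and 46 counts against 369, 96 and 88 (adjusted p = 0.0969 by edgeR). Ighv1-55 had 13, 67 and 42 against 339, 60 and 80 (adjusted p = 0.180 by edgeR), with circEZH2_005 2 below vector 2.

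**Figure D3:**
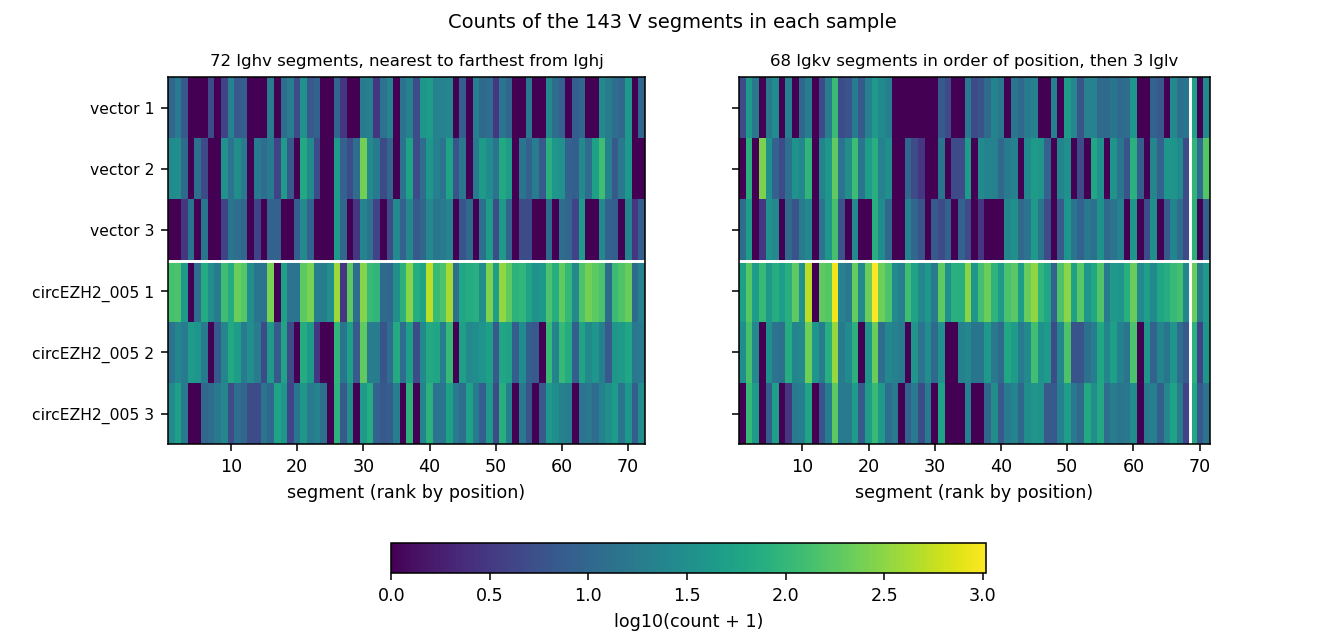
Colours give log10(count + 1) of each V segment (columns, ranked by position in the locus) in each sample (rows), for the 72 Ighv segments from nearest to farthest from the J segments and for the 68 Igkv segments followed by the 3 Iglv segments. Dark cells are counts of 0, which 44, 27 and 42 members had in vector 1 to 3 and 3, 12 and 21 had in circEZH2_005 1 to 3.

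The lambda segments and a few others departed from the common direction. Iglv1 had 52, 93 and 85 counts in vector samples against 216, 84 and 62 in circEZH2_005 samples (log2 fold change 0.63, adjusted p = 0.474 by edgeR). Its annotated span overlaps that of another gene, 2010309G21Rik. Strand and exons of that gene were not compared, so some Iglv1 reads may belong to it. Iglv2 had 25, 161 and 7 counts against 41, 39 and 13, the lowest log2 fold change of the segments tested at -1.08 (adjusted p = 0.578 by edgeR), and this turned to 0.91 without vector 2. Iglv3 had 0, 11 and 0 counts against 18, 3 and 6 and was not tested. Iglv2 was the highest in vector 2, in which it took 60.8% of lambda counts (95% Wilson interval 54.8 to 66.4), while Iglv1 led the lambda locus in the other 5 samples. The heavy segment Ighv1-76 had 26, 124 and 27 counts against 140, 19 and 20 (log2 fold change -0.04), and the kappa segment Igkv3-10 had 8, 23 and 31 against 26, 8 and 19 (log2 fold change -0.22). Their adjusted p-values were 0.986 and 0.885 by edgeR.

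Several segments were concentrated in few samples. Igkv1-132 was the most counted member of vector 2, with 263 counts there, 107 in circEZH2_005 1, 2 in vector 3 and 0 in the remaining 3 samples. It made up 13.9% of the kappa counts of vector 2 (95% Wilson interval 12.4 to 15.6). In 13 members a single sample held at least 75% of the counts, and that sample was circEZH2_005 1 for 10 of them. Igkv4-69 had 81 of its 85 counts there, Ighv1-58 had 89 of 96 and Igkv8-27 had 173 of 205. Ighv11-2 was instead high in circEZH2_005 3, with 54 counts, beside 0, 3 and 8 in vector samples against 0 and 6 in circEZH2_005 1 and 2. Ighv5-9 had 45 of 59 counts in circEZH2_005 2, and all 38 counts of the pseudogene Igkv2-116 came from that sample. These segments were picked after their values were seen.

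**Figure D4:**
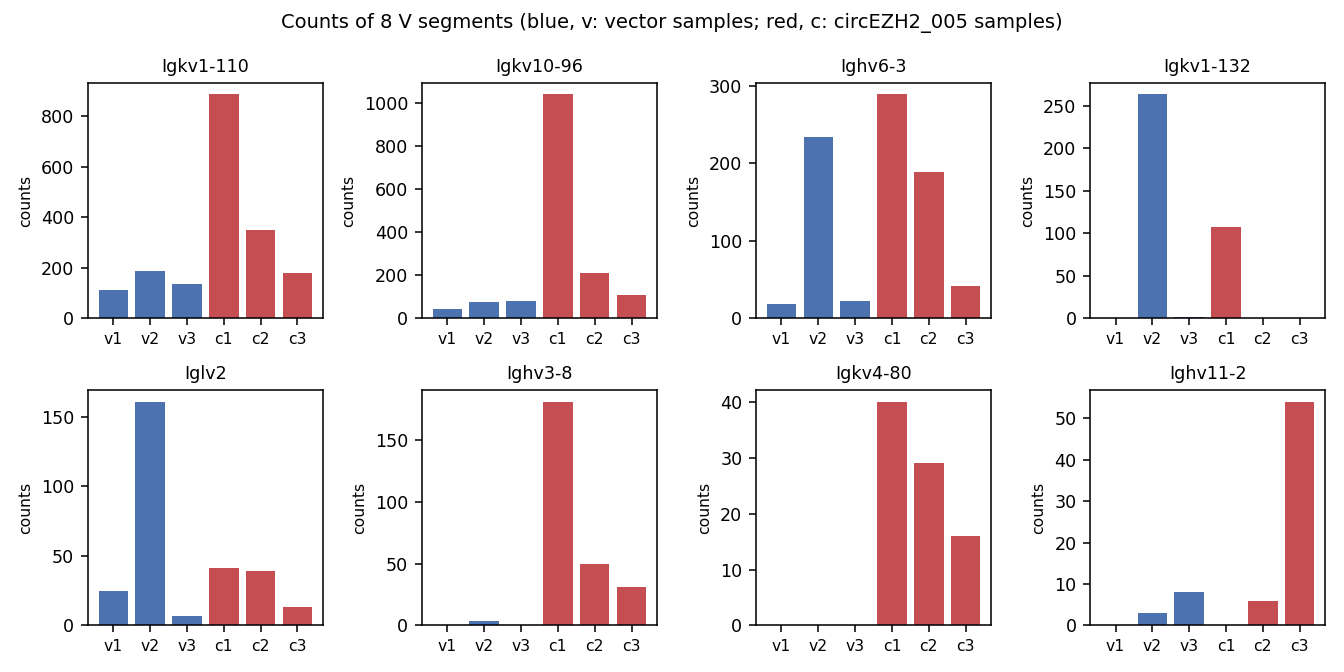
Bars give the counts of 8 V segments in vector samples 1 to 3 (blue, v1 to v3) and circEZH2_005 samples 1 to 3 (red, c1 to c3), each panel on its own scale. Igkv1-110 and Igkv10-96 are present in all 6 samples, Ighv6-3, Igkv1-132 and Iglv2 are high in vector 2, Ighv3-8 and Igkv4-80 are near 0 in vector samples, and Ighv11-2 is high in circEZH2_005 3 (54 counts).

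Segments at the edge of the selection had few reads. Just inside it, Ighv3-4 had 30 counts, all in circEZH2_005 1, and Ighv7-4 had 18 in circEZH2_005 1 and 12 in circEZH2_005 3. Just outside it, Ighv2-3 had 0, 0 and 12 counts in vector samples against 6, 11 and 0 in circEZH2_005 samples, and Igkv14-130 had 0, 8 and 0 against 13, 0 and 8, so both summed to 29. At the other end, 66 of the 143 members had a count above 0 in every sample and 32 had at least 10 in every sample. In FPKM averaged over the 6 samples, the median was 0.829 for Ighv segments, 0.842 for Igkv segments and 1.56 for the 3 Iglv segments, and the highest single value was 9.07 for Igkv1-110.

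By family, 32 of 34 V gene families had the higher mean in circEZH2_005 samples, and 11 of them had no circEZH2_005 sample at or below a vector sample. The share among single genes tested was 16.4%, but family sums can add several segments and include untested ones, so these shares are not directly comparable. The Ighv1 family, the largest of the mouse heavy chain locus, had 37 members and 56.7% of heavy chain counts, and its share of them ranged from 50.9% to 67.0% across samples. Its summed level was 6.505, 12.14 and 5.047 CPM in vector samples against 57.41, 16.35 and 11.97 CPM in circEZH2_005 samples, which overlapped. The small Ighv3 family, 4 members including Ighv3-6 and Ighv3-8, had 0.124, 0.790 and 0.588 CPM against 7.46, 2.02 and 1.86 CPM. That family showed no overlap, a ratio of 7.54 and, without circEZH2_005 1, a ratio of 3.87. The 14 members of the Igkv4 family, which include both called kappa segments, were each highest in circEZH2_005 1 and summed to 1.15, 2.08 and 0.677 CPM against 17.6, 3.10 and 2.26 CPM, a ratio of 5.89 that was 2.06 without that sample.

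Heavy chain segments were used along the whole locus in both groups. Split by distance from the J segments into 3 sets of 24, the nearest set held 19.1% to 25.7% of heavy chain counts in a sample, the middle set 38.6% to 43.8% and the farthest set 31.7% to 39.1%. The ranges describe all 6 samples, and vector and circEZH2_005 samples were interspersed in each. Kappa segments lie on both strands, and those on the strand opposite to Igkc, which are joined by inversion, held from 39.2% of kappa counts in vector 2 to 59.4% in circEZH2_005 1. The other 4 samples lay between 46.9% and 52.3%.

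By the measures below, reads were spread over more segments in circEZH2_005 samples. The effective number of segments, the exponential of the Shannon entropy of the counts, was 75.0, 69.1 and 66.6 in vector samples against 86.7, 82.4 and 84.2 in circEZH2_005 samples. After each sample was thinned by calculation to 1642 counts, the number of members expected was 99, 114 and 101 against 133, 128 and 121. Since members were selected on a sum in which circEZH2_005 1 weighed most, the effective number was also taken over all 192 listed segments. There it was 80.1, 73.5 and 74.2 against 92.1, 86.6 and 88.0. The thinned number was taken over members only, so it carries the effect of that selection. The effective numbers were taken without thinning and can rise with the number of counts, which differed between samples. Neither measure removes both effects. Of 2 samples near in depth, circEZH2_005 3 had fewer member counts than vector 2 (3266 against 3829) and the higher effective number. In both sets of segments the effective numbers of the groups did not overlap, and no test was made. The shares of the 143 members correlated between samples with a Pearson r of 0.471 to 0.734 among vector samples, 0.676 to 0.781 among circEZH2_005 samples and 0.437 to 0.750 across groups (n = 143 segments, which share libraries and depth). The range among vector samples lay within that across groups.

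Heavy and kappa V segment counts moved with the constant regions to which they are joined in mature transcripts. For every 100 heavy constant region counts there were 23.0, 31.1 and 21.2 Ighv counts in vector samples against 38.0, 27.7 and 35.9 in circEZH2_005 samples. For every 100 Igkc counts there were 68.5, 82.2 and 71.5 Igkv counts against 97.2, 78.0 and 104.0. These ratios varied by less than the levels themselves, and the groups overlapped because circEZH2_005 2 lay below vector 2. For every 100 lambda constant region counts there were 66.4, 161.0 and 128.0 Iglv counts against 68.9, 60.6 and 119.0. The lambda ratio thus varied more than those of the heavy and kappa loci.

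**Figure D5:**
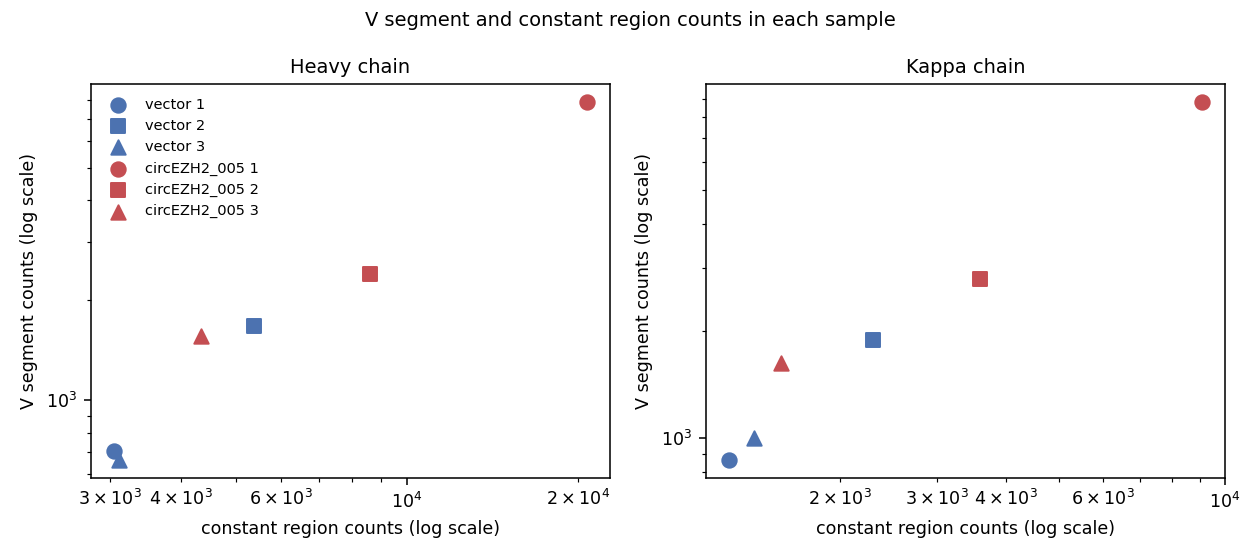
Each point is 1 sample, placed by its constant region counts (horizontal) and its V segment counts (vertical), both on log scales, for the heavy and the kappa chain. The samples lie along a rising line from vector 1 and vector 3 to circEZH2_005 1, with 20699 heavy constant and 7856 Ighv counts, and circEZH2_005 3 lies to the left of vector 2.

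None of the 11 constant region genes tested passed the adjustment. Under the looser rule 4 were higher and 0 lower, beside 6.22% and 1.34% of all genes tested. Igha had 2016, 4135 and 2064 counts in vector samples against 17392, 7382 and 3385 in circEZH2_005 samples (log2 fold change 1.74, adjusted p = 0.107 by edgeR). Igkc had 1258, 2296 and 1395 counts against 9075, 3597 and 1562 (log2 fold change 1.48, adjusted p = 0.154 by edgeR). For both, as for the V segments, circEZH2_005 3 lay below vector 2. Ighg2b and Ighg2c, constant regions of IgG subclasses, had log2 fold changes of 1.55 and 1.53 (adjusted p = 0.145 and 0.153 by edgeR).

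The isotypes did not move alike. Ighm had 353, 639 and 517 counts against 1253, 492 and 450 (log2 fold change 0.52, adjusted p = 0.472 by edgeR). Ighg1 had 432, 175 and 198 against 166, 99 and 170 (log2 fold change -0.90, adjusted p = 0.236 by edgeR). Igha made up 66.0% (95% Wilson interval 64.3 to 67.6), 76.7% (75.6 to 77.8) and 66.2% (64.5 to 67.9) of heavy constant counts in vector 1 to 3. It made up 84.0% (83.5 to 84.5), 85.6% (84.9 to 86.4) and 77.8% (76.6 to 79.0) in circEZH2_005 1 to 3, so the groups did not overlap, though vector 2 and circEZH2_005 3 were close. Differences between isotypes were not tested.

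Other genes of the antibody-making lineage are given beside the V segments. Jchain, which encodes the chain that links IgA into dimers, had 367, 775 and 513 counts in vector samples against 4096, 1585 and 753 in circEZH2_005 samples, and missed the threshold (log2 fold change 1.92, adjusted p = 0.0892 by edgeR). Of 10 plasma cell genes tested, 7 had a log2 fold change above 0 (median 0.53), 1 was called higher and 0 lower. In 3 of the 10 every circEZH2_005 sample lay above every vector sample, beside 16.4% of all genes tested, and in 3 below. The share of all genes lying below was not computed. The gene called was Prdm1, with 329, 563 and 365 counts against 2001, 2246 and 1388 (log2 fold change 2.16, adjusted p = 0.0130 by edgeR). Prdm1 encodes a transcription factor of plasma cells that T cells and gut epithelium also express. Xbp1, Derl3 and Txndc5, which serve protein folding and secretion, lay lower in every circEZH2_005 sample than in any vector sample and did not pass the adjustment (log2 fold changes -0.22, -0.39 and -0.18, adjusted p = 0.127, 0.499 and 0.213 by edgeR). Xbp1 had 15583, 15578 and 16431 counts against 13877, 13767 and 13266. Sdc1, Xbp1 and Txndc5 are expressed by epithelium too. Of 14 B cell markers tested, 0 were called in either direction, and their median log2 fold change was 1.37. Under the looser rule 4 were higher, beside 6.22% of all genes tested. Pax5 had 57, 30 and 10 counts against 223, 74 and 13, and Ms4a1 had 21, 111 and 54 against 364, 86 and 25. Both ran highest in circEZH2_005 1 and overlapped between groups. Cd79b, part of the B cell receptor, had 109, 138 and 63 counts against 352, 293 and 205 and did not overlap (log2 fold change 1.43, adjusted p = 0.0599 by edgeR), as Cd22 and Cd37 did not.

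The recombination machinery was nearly undetected. Rag1, Dntt, Igll1 and Vpreb1, which mark B cell precursors rearranging their V segments, together had 0.124, 0.0402 and 0.102 CPM in vector samples against 0.428, 0.457 and 0 CPM in circEZH2_005 samples, and none passed the filter on low counts. The J segments, to which V segments are joined, were measurable: 6 were tested, all 6 had a log2 fold change above 0 (median 1.83) and 0 were called. Under the looser rule 3 were higher, beside 6.22% of all genes tested. Ighj4 had 11, 27 and 13 counts against 133, 53 and 22 (adjusted p = 0.138 by edgeR), and so overlapped between groups. All 13 T cell markers tested lay higher in every circEZH2_005 sample than in any vector sample, as did the 3 pan-leukocyte markers, beside 16.4% of all genes tested. All 13 and all 3 were higher under the looser rule, with median log2 fold changes of 2.02 and 1.73, and 0 of these 16 were called. Whether these cells account for the V segment levels was not tested.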

How the data were processed

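Poly(A) RNA of 6 samples was sequenced by the authors, who deposited counts per gene without normalization and FPKM per gene. Per the labels, reads were handled with cutadapt 1.9, HISAT2 2.0.4, StringTie 1.3.4d and DESeq2 against mm10. The read counter, its treatment of reads with several matches, the annotation and the strand setting are not given in the sources used here. The control columns are named NC and were taken as vector, the only control group, and 0 sample columns went unused.

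Counts were filtered with filterByExpr, scaled with TMM and compared between 3 vector and 3 circEZH2_005 samples in R 4.3.3. The test was edgeR's quasi-likelihood F test (edgeR 4.0.16) over all genes with no covariate and with Benjamini-Hochberg adjustment. The script was checked on simulated counts. FPKM was used for levels between genes and in limma 3.58.1 as an alternative. All 143 identifiers had the same start and end in GENCODE M21, from which sequences were read and compared with edlib 1.3.9.post1. Members and lists were chosen with earlier results of these data known. Named were the 10 segments with the most counts, 3 per locus, the most counted in each sample, all called, the 3 largest and 3 smallest fold changes, and 2 on either side of the floor of 30 counts. Other segments and families are named after their values were seen, as are Ighj4 and single marker genes such as Prdm1, Pax5 and Derl3. Alternatives were DESeq2 1.42.0, its size factors, no filter, limma, a replicate block, other floors and each sample left out. Wilson intervals and floors of 3 counts cover counting error only.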

Additional observations from a re-analysis of the deposited data

How the results depend on the processing

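The 4 members called higher became 24 with DESeq2 (of 86 with an adjusted p, since 57 had none), which called 9.65% of all genes higher against 2.69% in edgeR. They became 7 with limma on log2(FPKM + 0.1) and 2 with limma on log2(FPKM + 1), which called 1.48% and 1.42% of all genes higher, and 2 with a floor of 100 counts, and 37 met the fold rule. The count was 0 with no filter, where 42 met the fold rule and 0.459% of all genes were called higher. With 1 sample left out the count ranged from 0 to 5, beside 0.136% to 5.74% of all genes. It was 4 without circEZH2_005 1 and vector 2 together, an alternative chosen after seeing the data that called 7.83% of all genes higher. No alternative called a member lower. Members under the fold rule numbered 13 with limma on log2(FPKM + 1), which shrinks low values, and 13 to 60 with 1 sample left out. For the fold rule the share of all genes was taken in the main fit only, at 6.22%. Replicate numbers did not pair the samples, since same-numbered deviations correlated at -0.23, -0.04 and 0.09 and 1 of 3 vector samples correlated best with its own number. With the replicate block 0 members were called and 27 met the fold rule, beside 1.31% of all genes called higher.

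The median log2 fold change of 1.94 was 0.63 and 1.32 in the limma fits, and 0.93 to 2.52 with 1 sample left out. The log2 fold of summed V segment CPM, 1.78, was 1.75 on raw totals, 1.76 over all listed segments and 0.87 to 2.29 with 1 sample left out. The 1 gene called higher among B cell, plasma cell and constant region genes became 8 with DESeq2, 0 to 3 with 1 sample left out and 4 without both samples named above. Of the alternatives that gave a value, Igkv4-80 stayed under 0.05 in 5 of 12, Igkv4-91 in 4 of 12, Ighv1-80 in 3 of 13 and Ighv3-8 in 5 of 13. Signs turned with 1 sample left out for Iglv1 (-0.029 without circEZH2_005 1, up to 0.92), Iglv2 (-1.62 to 0.91, positive without vector 2), Igkv3-10 (-0.59 to 0.15, with 0.12 without circEZH2_005 2) and Ighv1-76 (-1.56 to 1.12, with 0.37 and 0.36 without circEZH2_005 2 and 3). Iglv2 was at 0.68 without both samples. Apart from the samples left out, the cause of these shifts was not tested. With members at up to 0.0222% of a library, single segments rest on few counts.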
